A study of Homo sapiens with 4 samples.

Results

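HRK, BIK, BBC3, PMAIP1, BMF, BCL2L11, BAD and BID are the 8 genes examined here. They encode BH3-only proteins, and every array probe that the RefSeq transcripts of these genes name was taken, without regard to its signal. That gave all 8 genes, of 19483 that the probes named, and 12 of 34127 non-control probes. HRK, BIK, BBC3, PMAIP1 and BAD had 1 probe each, BMF and BID had 2 each and BCL2L11 had 3. Total RNA came from TR9_MeTA14 and TR15_MeTA5, stable derivatives of LNCaP, a human prostate cancer cell line. TR9_MeTA14 descends from TR9 and TR15_MeTA5 from TR15, which are LNCaP lines that stably carry the Tet repressor plasmid pcDNA6/TR. Each also carries a tetracycline-inducible construct, 3xFLAG-tagged NFκB (AD)-MBD, which joins a transcriptional activation domain to a methyl-CpG binding domain (methyl-CpG targeted transcriptional activation, MeTA). Each line was cultured for 4 days in the presence (+Tet) or else in the absence (-Tet) of tetracycline, all in medium with serum, and each of the 4 conditions was measured on 1 array. The comparison asks which genes the induced protein upregulates. All 4 cultures carried the repressor and the construct, and a line with the repressor alone was not analysed here, so tetracycline itself and the induced protein cannot be told apart.

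BH3-only proteins sense stress or loss of survival signals and start the mitochondrial route of apoptosis. Their short BH3 helix fits the groove of survival proteins such as BCL2 and MCL1, and some also activate the pore formers BAX and BAK1 directly. Several are held in check by silencing of the gene, by phosphorylation, by tethering to the cytoskeleton or by the need for cleavage, so the level of RNA is only one layer of their control. HRK and BIK were among the genes that the study picked for upregulation on these same arrays, so their increase is a description of the choice and not independent evidence.

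The promoters of 3 members are shown because NFκB (AD)-MBD is built to bind methylated CpG, and because these genes moved in different ways: HRK rose in both lines, BMF in TR9_MeTA14 alone by the 2-fold cut-off, and PMAIP1 showed the deepest drop. Each is the stretch of 250 bases before an annotated start in RefSeq (GRCh38.p14), 5′ to 3′ on the strand of the gene, with every CG dinucleotide in capitals. HRK lies at chr12:116881442-116881691 on the minus strand, PMAIP1 at chr18:59899746-59899995 on the plus strand and BMF at chr15:40108880-40109129 on the minus strand.
HRK: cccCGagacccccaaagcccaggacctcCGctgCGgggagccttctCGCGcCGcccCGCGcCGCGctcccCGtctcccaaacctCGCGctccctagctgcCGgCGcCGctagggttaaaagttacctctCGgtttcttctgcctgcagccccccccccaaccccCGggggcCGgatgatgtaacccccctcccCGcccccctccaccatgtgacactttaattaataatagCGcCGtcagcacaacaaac
PMAIP1: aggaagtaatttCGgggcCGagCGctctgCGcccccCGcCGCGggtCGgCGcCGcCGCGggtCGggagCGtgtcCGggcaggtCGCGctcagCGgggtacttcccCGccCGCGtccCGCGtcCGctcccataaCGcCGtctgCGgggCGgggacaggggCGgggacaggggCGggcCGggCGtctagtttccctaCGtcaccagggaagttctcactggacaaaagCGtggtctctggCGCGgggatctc
BMF: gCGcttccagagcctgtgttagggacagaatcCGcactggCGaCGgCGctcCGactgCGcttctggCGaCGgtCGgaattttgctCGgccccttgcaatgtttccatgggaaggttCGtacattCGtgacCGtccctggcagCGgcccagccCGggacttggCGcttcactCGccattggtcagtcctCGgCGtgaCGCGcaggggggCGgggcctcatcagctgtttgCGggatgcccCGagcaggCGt

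The stretch before HRK held 22 CpG, that before BMF 26 and that before PMAIP1 36. Of the 2 annotated starts of BMF, the one that held CpG was shown, and starts were not matched to the transcripts of the probes. Across 34943 unique promoter stretches of the same length the median was 11, and 28.0%, 19.6% and 4.85% of them held at least as many as HRK, BMF and PMAIP1, respectively. The letters searched were CG, which reads the same on both strands. PMAIP1, whose signal was lower with tetracycline in both lines, thus had the most CpG of the 3. In all, 7 of the 8 genes matched the promoter table, with 13 stretches between them, and BIK did not. BCL2L11 had 34 CpG, BAD 20 and 17 at its starts, and BID between 4 and 30. BBC3 had 4 and a second start of BMF had 0. Methylation of these bases was not measured on the arrays, and CpG content is a description of the sequence. Only bases before a start were counted. The paper looked on both sides of the start, over a wider window, and reported a CpG island for HRK and for BIK. The counts here are not comparable with that result.

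**Figure D1:**
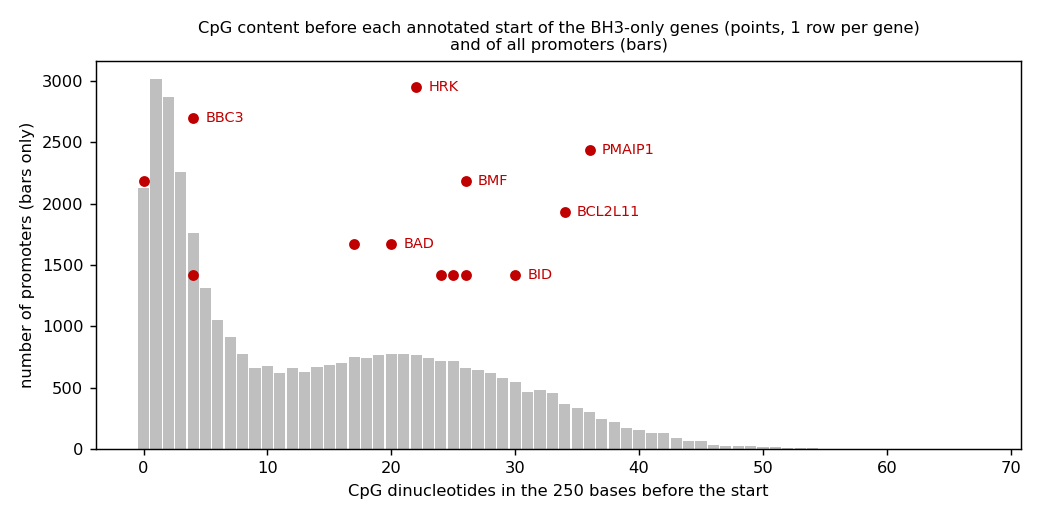
CpG dinucleotides in the 250 bases before each annotated start (x axis). Grey bars give the number of promoters with each count among 34943 (y axis), and red points give the starts of the BH3-only genes, 1 row per gene, so that the height of a point carries no value. PMAIP1 with 36 and BCL2L11 with 34 lie in the upper tail, HRK lies at 22 and BBC3 at 4.

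Values are the processed signal, the brightness of a spot after the scanner software subtracted background. For comparisons each array was scaled to its own 75th percentile, which was 617 without and 777 with tetracycline for TR9_MeTA14, against 367 and 542 for TR15_MeTA5. Between 20560 and 24217 probes per array were well above background by the software's own flag and none was saturated. Of the 12 BH3-only probes, 11 were well above background on all 4 arrays. All 11 probes of 7 prostate markers were well above background on all 4 arrays too. Of them, 5 were at least 2-fold lower with tetracycline in TR9_MeTA14, beside 15.1% of all probes compared, against 1 in TR15_MeTA5, beside 2.67%. KLK2, which encodes a kallikrein of the prostate, was the marker at least 2-fold lower in both lines, by 1 of its 2 probes (804 and 37.0 in TR9_MeTA14, 273 and 137 in TR15_MeTA5). The summed signal of the prostate markers, before scaling, was 297707 and 141622 in TR9_MeTA14 and 237857 and 221526 in TR15_MeTA5. KLK3 was the largest part of that sum, at 144067 and 47017 in TR9_MeTA14 and 135330 and 123470 in TR15_MeTA5. Fibroblast, leukocyte and endothelial markers were at background for 3 of 4, 2 of 6 and 2 of 5 probes on every array, COL1A2 and DCN among them. Well above background on all 4 arrays were COL1A1 (475 and 505 in TR9_MeTA14, 36.4 and 97.6 in TR15_MeTA5) and VWF (between 260 and 378). CDH5, CD14 and PTPRC by A_33_P3364808 were so too. The summed signals of the fibroblast, leukocyte and endothelial markers, before scaling, ranged from 50.5 to 523, from 215 to 1062 and from 344 to 489. The leukocyte sum followed CD14, which read 69.4 and 840 in TR9_MeTA14 and 52.9 and 373 in TR15_MeTA5 and was the marker probe called by limma (log2 change 2.76, limma adjusted p = 0.048). The part of these markers in the results below was not tested. In bulk RNA, fewer cells with a transcript and less of it per cell cannot be told apart.

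HRK (harakiri) encodes a small activator of apoptosis best known from neurons deprived of survival factors. Its probe, A_23_P25194, matched transcript NM_003806 and read 392 without and 1300 with tetracycline in TR9_MeTA14, against 76.9 without and 694 with it in TR15_MeTA5. After scaling, both +Tet arrays were above both -Tet arrays, with TR9_MeTA14 the higher line under either treatment. HRK was upregulated 2.64-fold in TR9_MeTA14 and 6.11-fold in TR15_MeTA5. On the log2 scale these changes were 1.40 and 2.61, with a technical SD of 0.087 and 0.18 taken from replicate spots of other probes. That SD covers the array surface only, and the spread between cultures is unknown at 1 array per condition. Within TR9_MeTA14, 10.8% of the 24248 probes compared had a larger increase than HRK, and within TR15_MeTA5 2.48% of 22341 did. The lower start in TR15_MeTA5 went with its larger rise, but both rest on the same TR15_MeTA5 -Tet reading of 76.9 and are not independent. Scaled -Tet signal was 3.03-fold lower in TR15_MeTA5 than in TR9_MeTA14, whereas the +Tet arrays differed by 0.39 on the log2 scale.

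BIK encodes a BH3-only protein anchored in the membrane of the endoplasmic reticulum, which binds survival proteins. Its probe, A_23_P404667 for NM_001197, read 1465 without and 6076 with tetracycline in TR9_MeTA14, against 715 without and 2956 with it in TR15_MeTA5. Both +Tet arrays were again above both -Tet arrays after scaling. The increase was 3.29-fold in TR9_MeTA14 and 2.80-fold in TR15_MeTA5, or 1.72 and 1.48 on the log2 scale, with technical SDs of 0.072 and 0.087. The lines lay close together for BIK. The scaled signal in TR15_MeTA5 was below that in TR9_MeTA14 by 1.22-fold without and 1.43-fold with tetracycline. Increases larger than that of BIK were seen for 8.35% of probes in TR9_MeTA14 and 5.61% in TR15_MeTA5.

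**Figure D2:**
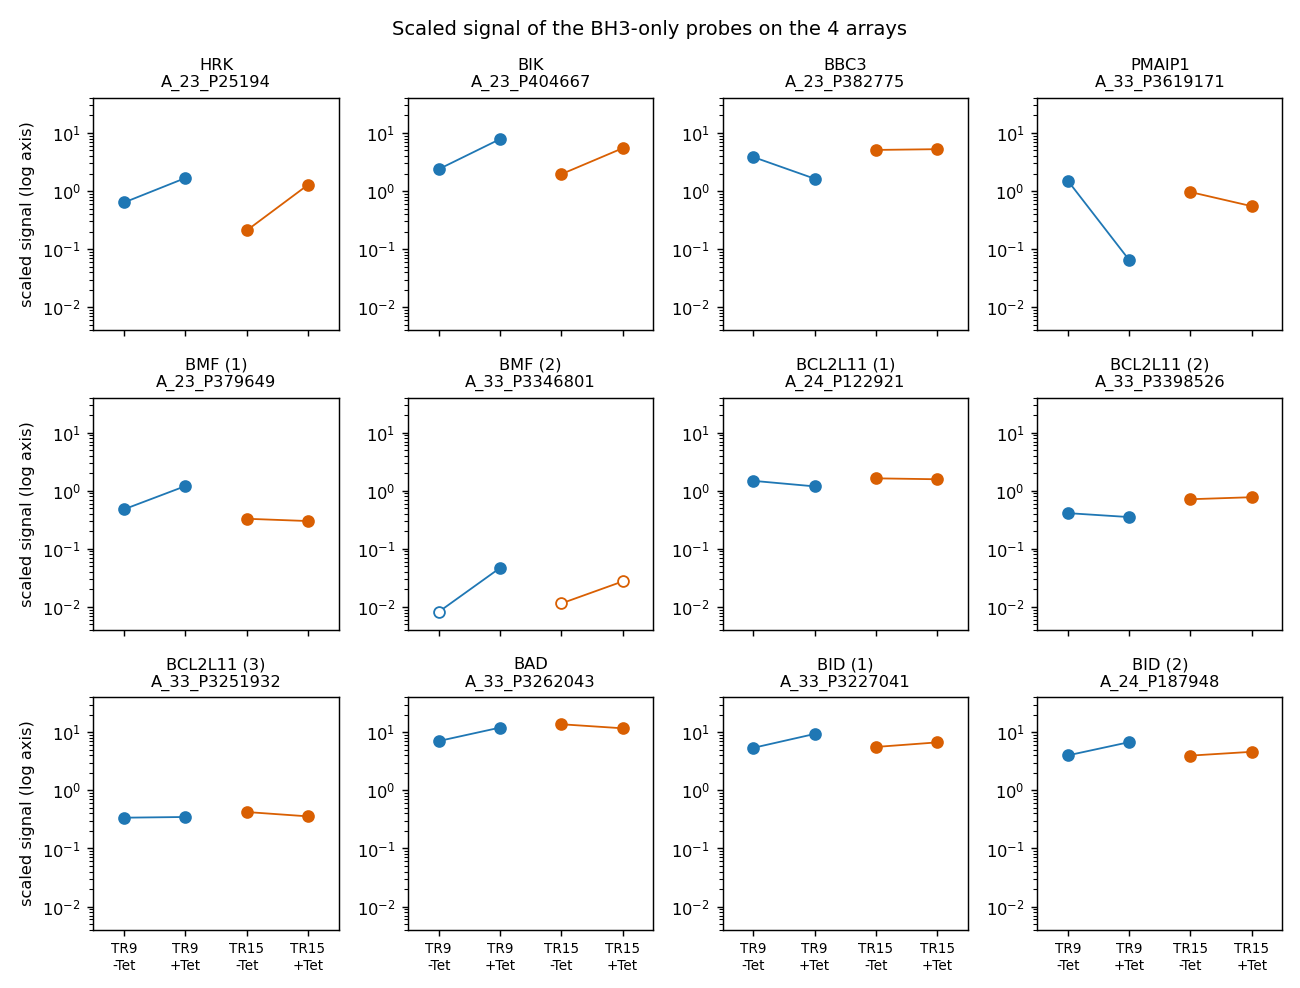
Scaled processed signal (y axis, log scale, 1 is the 75th percentile of the array) of each of the 12 probes on the 4 arrays (x axis). Blue is TR9_MeTA14, orange is TR15_MeTA5 and open circles mark arrays where the probe was not well above background. HRK and BIK slope upward in both lines, and PMAIP1 drops in TR9_MeTA14. Levels of different probes are not comparable.

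PMAIP1 encodes NOXA, which binds MCL1 and promotes its degradation. Its probe, A_33_P3619171 for NM_021127, read 929 without and 50.6 with tetracycline in TR9_MeTA14, against 352 without and 297 with it in TR15_MeTA5. The TR9_MeTA14 +Tet array stood far below the other 3, yet the probe was still well above background there. PMAIP1 fell 23.1-fold in TR9_MeTA14, a log2 change of -4.53 with a technical SD of 0.18, and 7 of the 24248 probes compared in that line fell further. In TR15_MeTA5 the signal was 1.75-fold lower with tetracycline, under the cut-off of 2-fold, and 1109 of 22341 probes had a larger decrease. The log2 changes in the lines differed by 3.72, and 0.176% of the 19298 probes that all 4 arrays measured well above background differed by more. This difference has no test, because 4 arrays leave no residual degree of freedom for it.

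BBC3 encodes PUMA, a potent BH3-only protein that binds all the main survival proteins. Its probe, A_23_P382775 for NM_014417, read 2376 without and 1267 with tetracycline in TR9_MeTA14, against 1868 without and 2846 with it in TR15_MeTA5. As for PMAIP1, the lowest array was TR9_MeTA14 +Tet. BBC3 fell 2.36-fold in TR9_MeTA14 (log2 change -1.24, technical SD 0.072). In TR15_MeTA5 its log2 change was 0.04, smaller than the technical SD of 0.072. BBC3 and PMAIP1 are best known as genes switched on by DNA damage, and both were lower in TR9_MeTA14 +Tet. In that line 5 of 11 prostate marker probes were also at least 2-fold lower with tetracycline, beside 15.1% of all probes compared. The KRT8 probes among those markers were higher instead (log2 changes 0.24 and 0.45).

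BMF encodes a BH3-only protein that dynein light chain holds on the actin cytoskeleton until the cell detaches. Its brighter probe, A_23_P379649 for NM_001003940, read 296, 933, 121 and 163 in that order of arrays. Only TR9_MeTA14 +Tet stood out, with an increase of 2.51-fold (log2 change 1.33, technical SD 0.087). In TR15_MeTA5 the log2 change of BMF was -0.13 after scaling. The dimmer BMF probe, A_33_P3346801, read 5.06, 36.4, 4.21 and 14.9 and was well above background in TR9_MeTA14 +Tet alone. It gave an increase of at least 1.87-fold in TR9_MeTA14 and no fold change in TR15_MeTA5. Both probes are paired with NM_001003940, and both were highest in TR9_MeTA14 +Tet.

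BCL2L11 encodes BIM, which binds all the main survival proteins and can activate BAX, and whose longer forms dynein light chain tethers to microtubules. Its 3 probes read between 155 and 922 over all arrays. Log2 changes were -0.32, -0.23 and 0.04 in TR9_MeTA14 and -0.05, 0.12 and -0.25 in TR15_MeTA5 for A_24_P122921, A_33_P3398526 and A_33_P3251932. None reached 2-fold. A_33_P3398526 and A_33_P3251932 are both paired with NM_207002 and A_24_P122921 with NM_138621. The signs of the 3 probes differed from each other in at least one of the lines, so they gave no common direction.

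BAD encodes a BH3-only protein that survival kinases phosphorylate and that 14-3-3 proteins then hold in the cytosol. Its probe, A_33_P3262043 for NM_004322, read 4354 without and 9339 with tetracycline in TR9_MeTA14, against 5032 without and 6341 with it in TR15_MeTA5. After scaling it was 1.70-fold higher with tetracycline in TR9_MeTA14 and 1.17-fold lower in TR15_MeTA5. BID encodes a BH3-only protein that caspase-8 cleaves into its active form, which links death receptors to mitochondria. Its 2 probes moved alike. A_33_P3227041 read 3326, 7257, 2048 and 3630 and A_24_P187948 read 2468, 5247, 1453 and 2499, in the same order of arrays. BID was 1.73-fold and 1.69-fold higher in TR9_MeTA14 and 1.20-fold and 1.16-fold higher in TR15_MeTA5, under the cut-off in both.

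**Figure D3:**
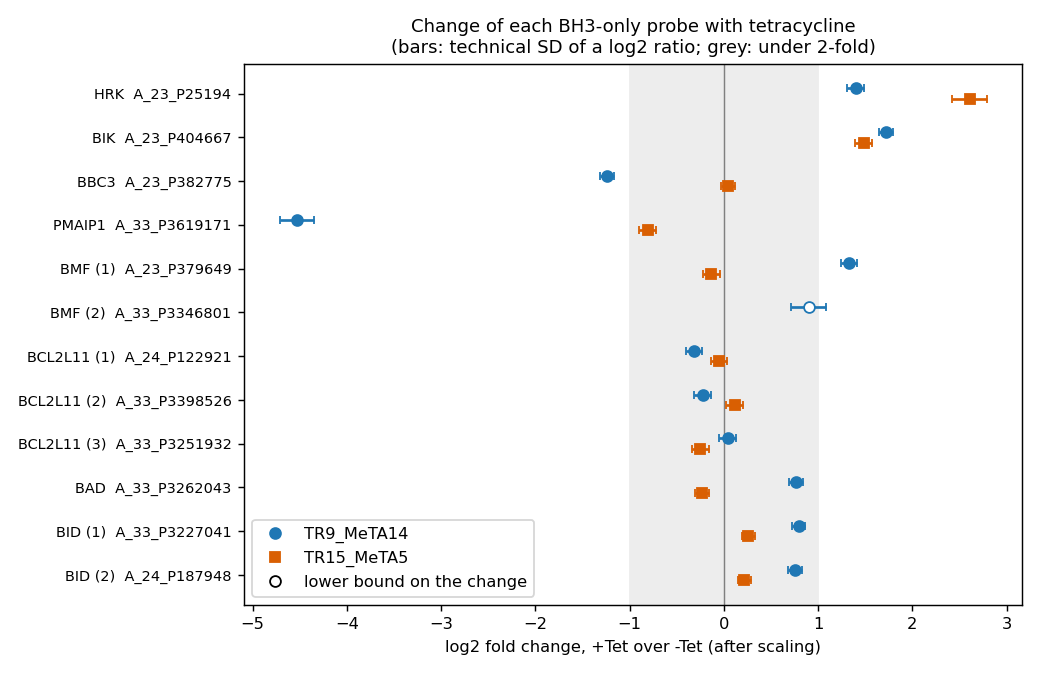
Log2 fold change of each probe with tetracycline (x axis, +Tet over -Tet after scaling) in TR9_MeTA14 (blue circles) and TR15_MeTA5 (orange squares). Bars are the technical SD from replicate spots, the open circle is a lower bound and the grey band is under 2-fold. HRK and BIK lie above the band in both lines, BMF in TR9_MeTA14, and PMAIP1 and BBC3 lie below it in TR9_MeTA14.

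In TR9_MeTA14, 3 of the 12 BH3-only probes (HRK, BIK and BMF) were at least 2-fold higher with tetracycline, beside 15.2% of all probes compared, and 2 (BBC3 and PMAIP1) were at least 2-fold lower, beside 15.1%. In TR15_MeTA5, 2 of 11 (HRK and BIK) were higher, beside 8.5% of all probes, and 0 were lower, beside 2.67%. With so few members, shares that differ from the background by a probe or so are no result about the group. The median log2 change of the members was 0.76 in TR9_MeTA14 and 0.04 in TR15_MeTA5, where all probes compared had medians of -0.06 and -0.16. Of 21657 probes compared in both lines, 1519 or 7.01% were at least 2-fold higher in both, and of the 11 BH3-only probes 2 were. Those 2 were HRK and BIK, which the study picked on these same arrays for at least 2-fold upregulation in both lines. That choice fixed their place in the counts of higher probes and entered the medians of the members. Neither is thus evidence about the group. Another 193 probes, 0.891%, were at least 2-fold lower in both, and no BH3-only probe was.

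**Figure D4:**
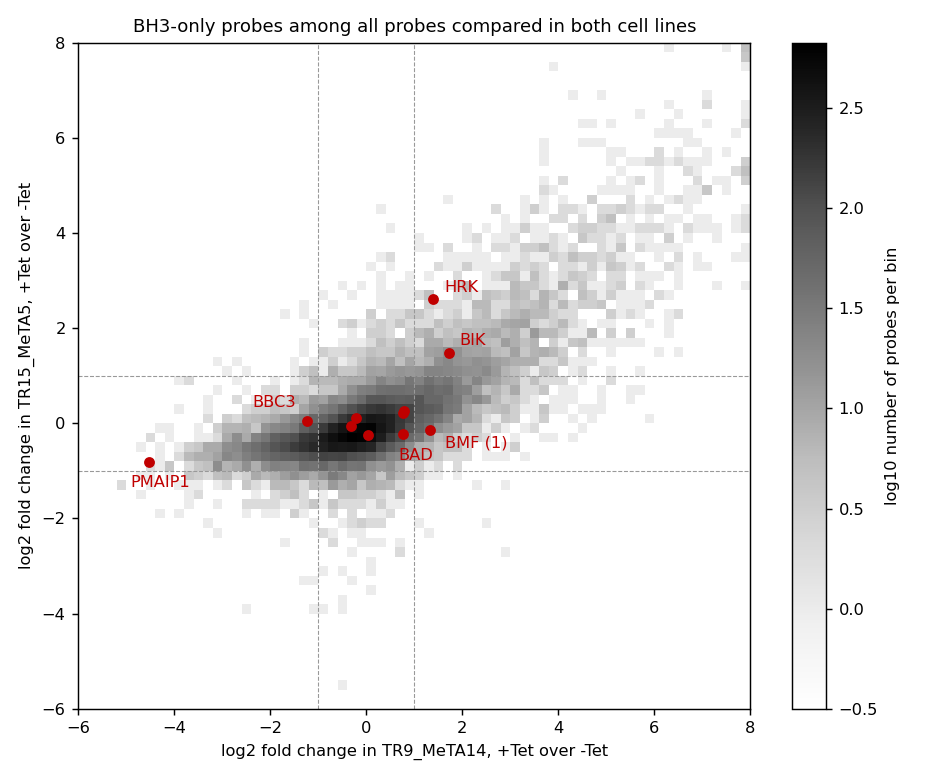
Log2 fold change with tetracycline in TR9_MeTA14 (x axis) and TR15_MeTA5 (y axis). Grey squares show how many of the 21657 probes compared in both lines fall in each bin, with values past 8 drawn in the last bin, red points are the 11 BH3-only probes BMF (1) is the brighter BMF probe and dashed lines mark 2-fold. HRK and BIK lie in the upper right region and PMAIP1 at the far left edge.

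With the lines as the only repeats of the contrast and a block for the line, limma called 593 of 22808 probes higher (2.6%) and 3 lower (0.0132%) at an adjusted p below 0.05, and 0 of the 11 BH3-only probes tested. That count depended on the setting: BIK was called when arrays were scaled on spike-in probes or on the percentile over spots, and both BIK and HRK were called without a filter on dim probes. BIK had a log2 change of 1.60 (SE 0.25, limma adjusted p = 0.069) and HRK one of 2.0 (SE 0.39, limma adjusted p = 0.103), both higher in 2 of 2 lines. PMAIP1 had -2.67 (SE 0.94, limma adjusted p = 0.248). These 3 probes had an unadjusted limma p below 0.05, as did 19.5% of all probes tested. The larger mean change of HRK came with the larger SE, and its lines differed more than those of BIK. BMF had 0.60 (SE 0.44, limma adjusted p = 0.477) and BBC3 -0.60 (SE 0.40, limma adjusted p = 0.436). The adjusted p of the remaining 6 probes lay between 0.350 and 0.923, and the fit has 1 residual degree of freedom, so a miss does not show that a gene was unaltered.

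Scaling could turn the sign of small changes. Among probes that all 4 arrays measured well above background, the median log2 change was -0.15 in TR9_MeTA14 and -0.19 in TR15_MeTA5 in the setting used here, and -0.04 and 0.18 when arrays were scaled on spike-in probes. HRK lay between 1.14 and 1.51 in TR9_MeTA14 and between 1.87 and 2.97 in TR15_MeTA5 over 6 ways of scaling or correcting the arrays, and BIK between 1.68 and 1.84 and between 1.48 and 1.85. PMAIP1 lay between -4.58 and -2.99 in TR9_MeTA14, the smallest drop being that after normexp background correction, in which an offset of 50 is added. BMF lay between 1.04 and 1.44 and BBC3 between -1.29 and -1.12 in TR9_MeTA14. In TR15_MeTA5 the sign was not the same throughout for the brighter BMF probe, BAD and 2 of the 3 BCL2L11 probes (A_24_P122921 and A_33_P3251932).

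**Figure D5:**
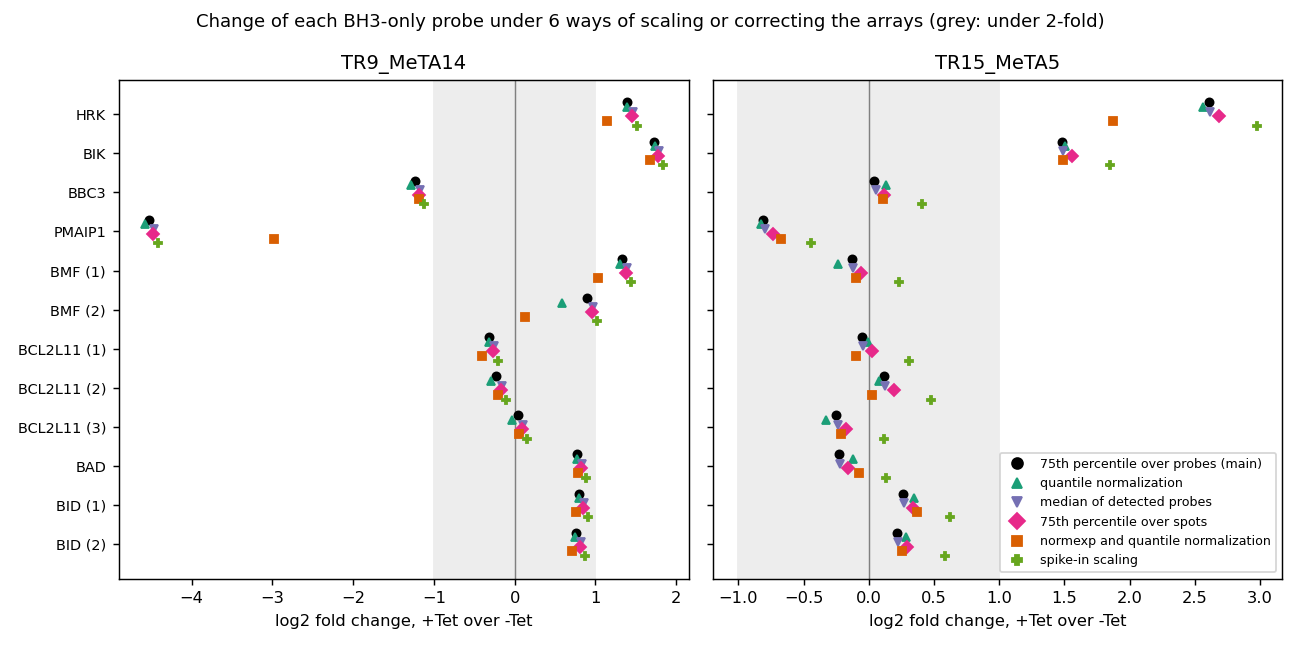
Log2 fold change with tetracycline (x axis) of each probe under 6 ways of scaling or background correction (symbols), in TR9_MeTA14 (left) and TR15_MeTA5 (right), with the grey band under 2-fold. HRK and BIK stay above the band in both lines, and PMAIP1 and BBC3 below it in TR9_MeTA14 under each of them.

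The lines were also set side by side under the same treatment, a comparison added after the data were seen. Without tetracycline, 0 of 11 BH3-only probes were at least 2-fold higher in TR15_MeTA5 than in TR9_MeTA14, beside 8.44% of all 21650 probes compared, and 1 (HRK) was lower, beside 5.49%. With tetracycline, 3 of 12 were higher, beside 14.3% of 22984 probes, and 1 (BMF) was lower, beside 10.1%. PMAIP1 was 8.42-fold higher in TR15_MeTA5 than in TR9_MeTA14 with tetracycline, BBC3 3.22-fold higher and BCL2L11 by A_33_P3398526 2.20-fold higher. BMF was 4.00-fold lower by its brighter probe. The other BCL2L11 probes, A_24_P122921 and A_33_P3251932, were 1.33-fold and 1.02-fold higher with tetracycline. A_33_P3398526 was already 1.73-fold higher in TR15_MeTA5 without it. Of the 4 genes with a probe past 2-fold between the lines with tetracycline, PMAIP1, BBC3 and BMF had also changed at least 2-fold in TR9_MeTA14 and BCL2L11 had not. Both comparisons use the same TR9_MeTA14 +Tet array, so this overlap is partly built in and is not separate evidence. Scaling on spike-in probes moved the median of all probes between the lines from 0.13 to -0.90 without tetracycline and from 0.10 to -0.69 with it. These counts followed that shift, and PMAIP1 alone was then at least 2-fold higher in TR15_MeTA5 with tetracycline.

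Genes acting beside the BH3-only proteins were read from lists of 3 to 12 genes, each counted against the same background percentages. By the 2-fold cut-off those were 15.2% higher and 15.1% lower in TR9_MeTA14, and 8.5% higher and 2.67% lower in TR15_MeTA5. No probe of these lists was called by limma. Of 8 probes for 6 survival proteins, 6 were compared in TR9_MeTA14 and 5 in TR15_MeTA5, with medians of -0.05 and -0.40 on the log2 scale and no probe at least 2-fold higher. MCL1, the partner of PMAIP1, read 838, 1030, 452 and 551 and had log2 changes of -0.03 and -0.28. BCL2 was lower by at least 3.86-fold in TR9_MeTA14 by 1 of its 2 probes, from a signal of 42.6, but its log2 bound of -1.95 shrank to -0.57 under another correction. The other BCL2 probe was not well above background on any array. Of 4 probes for the pore formers BAX, BAK1 and BOK, BOK rose in TR9_MeTA14 cells (2033 to 6939, log2 change 1.44) and 1 of 2 BAX probes fell (2106 to 1280, log2 change -1.05, between -1.08 and -0.94 over the scalings), and none passed the cut-off in TR15_MeTA5. The medians of the pore formers were 0.26 and 0.08. Of the genes named from these lists, SFN alone met the rule for naming, and all others were chosen after their values were seen.

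Of 10 probes for transcription factors known to act on BH3-only genes, 5 fell in TR9_MeTA14 and 2 rose, by the 2-fold cut-off, beside 15.1% and 15.2% of all probes compared. In TR15_MeTA5 0 of 10 did either, beside 2.67% and 8.5%. The medians were -1.0 and -0.25. E2F1 read 443, 79.4, 813 and 749 and fell by 2.81 on the log2 scale in TR9_MeTA14. DDIT3, which encodes the stress factor CHOP, read 1507, 394, 244 and 270, with log2 changes of -2.27 and -0.42. The others that fell were JUN (-2.28), ATF4 (-1.87) and 1 of 3 FOXO3 probes (-1.02, or -0.90 under another scaling), and both probes of TP73 rose (2.02 and at least 1.55). The TP73 calls were lost under another correction, with values down to 0.95 and 0.33. Falls in TR9_MeTA14 were thus found for some factors acting on BH3-only genes as well as for PMAIP1 and BBC3, and a link between them was not tested. The fall of DDIT3 came with a high reading on TR9_MeTA14 -Tet (1507). Before scaling, its +Tet reading of 394 was above both TR15_MeTA5 readings (244 and 270). Of 11 probes for 7 BH3-like proteins, 4 fell in TR9_MeTA14 (both of HUWE1, 1 of BCL2L13 and that of BNIP2, from -1.59 to -1.02), beside 15.1% of all probes. None fell in TR15_MeTA5, beside 2.67%, and the medians were -0.30 and -0.35. The second HUWE1 probe, BCL2L13 and BNIP2 did not reach 2-fold under every scaling, with values up to -0.90, -0.95 and -0.91.

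Among 15 probes for partners and kinases of BH3-only proteins, that of SFN was at least 2-fold higher in both lines, beside 7.01% of all probes compared in both. SFN encodes a 14-3-3 protein, of the family that holds BAD. It read 566, 8402, 627 and 3433, with log2 changes of 3.56 and 1.89 (limma log2 change 2.72, SE 0.47, limma adjusted p = 0.082). DYNLL1, the light chain that binds BCL2L11, also rose in TR9_MeTA14 by 1 of 2 probes (log2 changes 0.98 and 1.03), whereas DYNLL2, the light chain that binds BMF, fell (-1.23), as did the kinase PIM1 (-1.79). The medians of this list were 0.00 and -0.27. Of 10 apoptosome probes, 9 were compared. All 3 probes of CYCS, cytochrome c, fell in TR9_MeTA14 by between 1.32 and 1.84 on the log2 scale, beside 15.1% of all probes at least 2-fold lower. CASP9 rose in that line (1.20), beside 15.2% at least 2-fold higher. APAF1 was not well above background on any array, and no apoptosome probe passed the cut-off in TR15_MeTA5. The medians were -0.28 and -0.38.

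The probes most like HRK and BIK over the 4 arrays were found by the distance between log2 levels centred on the mean of each probe, among 16057 named probes well above background on all arrays. Nearest to HRK were CYP2D6 at a distance of 0.20, BACE2 at 0.26 and NPIPB5 at 0.37. BACE2 had log2 changes of 1.15 in TR9_MeTA14 and 2.34 in TR15_MeTA5. CYP2D6 and NPIPB5 have near-identical copies in the genome, and their probes may read those too. Nearest to BIK were FCN3 at 0.045, PROSER3 at 0.075 and MAP7D1 at 0.077. FCN3 had log2 changes of 1.67 and 1.48, beside 1.72 and 1.48 for BIK. The changes of BACE2 and FCN3 resemble those of HRK and BIK because the probes were chosen by that likeness. The neighbours of HRK lay farther away than those of BIK, and with 4 points a small distance is a description of the pattern only.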

How the data were processed

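RNA from 4 cultures was measured, 1 array per condition, as Cy3-labelled cRNA on an Agilent whole human genome array. The authors deposited scanner output with a processed intensity per spot, from which Agilent Feature Extraction (10.7.3.1 in the file headers, 9.5.1 in the submitters' processing notes) had subtracted background, with no normalization between arrays. The series' value table has the same intensities on all 44495 spots of each array. The authors' normalization between arrays is not given in the sources used here. All 4 arrays shared a slide, so slide is no batch that can be tested.

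From these intensities, between 255 and 344 outlier spots per array were left out, log2 values of the spots of a probe were averaged, and the 75th percentile over non-control probes was subtracted. RefSeq accessions, looked up in a table on GRCh38.p14, named 25422 probes (74.5%). A probe was compared where the brighter array was well above background by the flag of Feature Extraction. Where the dimmer array was not, the fold is a lower bound: the bright value against the dim array's lowest signal well above background (between 13.9 and 19.2), or against the dim value itself if that was higher. A fold under 1 is not given. The cut-off of 2-fold is that of the study. Technical SDs are the median SD of probes with 10 spots in the same range of signal, combined over both arrays. The number of arrays limits the precision. The limma SEs and p-values rest on the spread between the cell lines, which eBayes draws toward that of probes with similar signal. They are thus not the spread of a single gene between the lines.

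The fit over both lines used limma 3.58.1 in R 4.3.3 (cell line as a block, eBayes with an intensity trend, Benjamini-Hochberg adjustment over the probes that at least 2 arrays measured well above background). It was tested on simulated data. Other values came from pandas 2.3.3 and numpy 2.4.6 in Python 3.11.15, and figures from matplotlib 3.10.9. CpG were counted in RefSeq promoter sequences of GRCh38.p14. Every probe of the 8 genes is named, and the rule for the other lists was to name genes at least 2-fold changed the same way in both lines or called by limma, to which the report adds genes chosen after their values were seen. The 3 probes nearest to HRK and to BIK were named by distance. One marker gene is not reported here. The members and lists were chosen with earlier results of these data known. Alternatives were scaling by quantiles, by 8 spike-in probes, by the median of detected probes or by the percentile over spots, normexp with an offset of 50 on median spot signals followed by quantile normalization, the series table, all spots kept, other filters, plain ratios, and cut-offs of 1.5-fold and 3-fold.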

Additional observations from a re-analysis of the deposited data

Results flagged for a closer look

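BAD was flagged because its signal moved in opposite directions in the lines by more than the technical error of the spots. The log2 change with tetracycline was 0.77 in TR9_MeTA14 and -0.23 in TR15_MeTA5. The difference was not tested, since each condition has 1 array. Scaled on spike-in probes, the change in TR15_MeTA5 was 0.13, so the opposite sign depends on the scaling.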

How the results depend on the processing

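The log2 changes of the members kept their direction where they passed 2-fold. Of 23 changes by probe and line, spike-in scaling moved 21 by more than the technical SD, normexp 9, quantile normalization 5, the percentile over spots 4, and plain ratios and no filter 1 each. Keeping all spots, scaling on the median, the filter on all 4 arrays and the series table, which is identical to the processed signals, moved 0. With plain ratios, with no filter or with spike-in scaling the dimmer BMF probe also passed 2-fold in TR9_MeTA14, so 4 were higher in place of 3, and with no filter it passed in TR15_MeTA5, so 3 were higher in place of 2. Larger shifts in the counts with tetracycline came from the cut-off, by construction: at 1.5-fold 7 were higher in TR9_MeTA14 and 1 (PMAIP1) was lower in TR15_MeTA5, and at 3-fold 1 (BIK) was higher and 1 (PMAIP1) lower in TR9_MeTA14 and 1 (HRK) higher in TR15_MeTA5. Between the lines without tetracycline, 2 were higher and 2 lower in TR15_MeTA5 at 1.5-fold. Spike-in scaling adds 1 constant per array to every log2 value, and it gave 5 lower in TR15_MeTA5 without tetracycline, and 1 higher and 6 lower with it. Limma called 596 probes in the setting used, 1234 with spike-in scaling, 980 with the percentile over spots, 182 when only probes detected on all 4 arrays were tested, which are fewer, and 1325 without a filter. The number of BH3-only probes called was 0, and 1 (BIK) with spike-in scaling, 1 (BIK) with the percentile over spots and 2 (BIK and HRK) without a filter. Over the alternatives the limma adjusted p of HRK lay between 0.033 and 0.235 and that of BIK between 0.021 and 0.118. Apart from these settings' own construction, the cause was not tested. The fit over both lines pairs the arrays by cell line. Every array has the same replicate number, which therefore cannot serve as a block, and with 1 array per condition no replicate could be left out. A dim signal limits PMAIP1 in TR9_MeTA14 +Tet and the dimmer BMF probe, whose plain ratio in TR9_MeTA14 was 2.51 on the log2 scale against a bound of 0.90.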
